A study of Mus musculus with 5 samples.

Results

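The TLR4 receptor complex, its adaptors and its brakes were followed as 10 genes in mouse colon: Tlr4, Ly96, Cd14, Myd88, Ticam1, Irak2, Irak3, Traf6, Tollip and Sigirr. They were chosen by symbol, out of 15596 gene symbols with a probe, and every probe whose RefSeq accession maps to them was taken. That gave 17 probes on long-oligonucleotide arrays read in a single colour. Total RNA came from 2 villin-TLR4 samples, of which 1 is female and 1 male, and from 3 WT littermate (wild-type) samples, which are all female. In villin-TLR4 mice a TLR4 transgene is driven by the promoter of villin, a gene of the intestinal epithelium. All mice were bred on C57Bl6, were 10 weeks old at the start, and were injected with azoxymethane (AOM), a colon carcinogen, at 7.4 mg/kg on day 0. All then went through 2 cycles of DSS (dextran sulfate sodium), a polymer that damages the epithelium of the colon, the first for 7 days from day 7 and the second for 5 days. Colon without tumour was taken on day 56. DSS was given at 1.5% to villin-TLR4 mice and at 3% to their littermates. Genotype and DSS concentration cannot be told apart in any value given here.

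TLR4 recognises bacterial lipopolysaccharide together with MD-2 (encoded by Ly96), after CD14 has handed the lipid over. The engaged receptor recruits MyD88, which assembles IRAK kinases and activates the ubiquitin ligase TRAF6, leading to NF-kappaB, and from endosomes it uses TRIF (encoded by Ticam1), leading to IRF3 and type I interferon. IRAK-M (encoded by Irak3), Tollip and SIGIRR restrain the MyD88 branch, and in the normal colon the epithelium is known for low TLR4 and MD-2.

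None of the 10 genes passed the test between the genotypes. Values are log2 intensities after background correction and quantile normalisation, and a difference is the villin-TLR4 mean minus the WT littermate mean, with its standard error from limma. Of the 16 member probes bright enough to test, 0 had a Benjamini-Hochberg adjusted p under 0.05, beside 0.0% of all 19121 probes tested. At an unadjusted p under 0.05 there were 3, beside 4.64% of all probes: Myd88 and Irak3, with lower means in villin-TLR4, and Irak2, with a higher mean. The groups did not overlap for 2 member probes that were higher in villin-TLR4, beside 12.6% of all probes, and for 3 that were lower, also beside 12.6%. The median difference of the member probes was 0.04 and that of all probes 0.02, and the median size of a difference was 0.39 against 0.25. With 2 samples against 3, an exact permutation test of a single value cannot go below a two-sided p of 0.1.

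WT littermate replicate 1 differed from the other arrays, and this touches most member values. Of 35078 gene probes 13352 were found there, against 16380 to 19509 elsewhere, and 1240 of its spots were marked bad against at most 4 elsewhere. Among the 16 tested member probes, 6 were highest and 6 were lowest on that array. Over all probes tested, 31.6% were highest and 40.2% lowest there. The difference of each member probe, and of each other pathway gene named below by its difference, is therefore also given without it. The file headers place villin-TLR4 replicate 1 alone on the first scan day and WT littermate replicates 1 and 3 on the second. Only the third scan day holds both genotypes, with villin-TLR4 replicate 2, the male, and WT littermate replicate 2, a female. A value within that day compares 1 array with 1 array, and sex cannot be told apart from genotype in it.

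**Figure D1:**
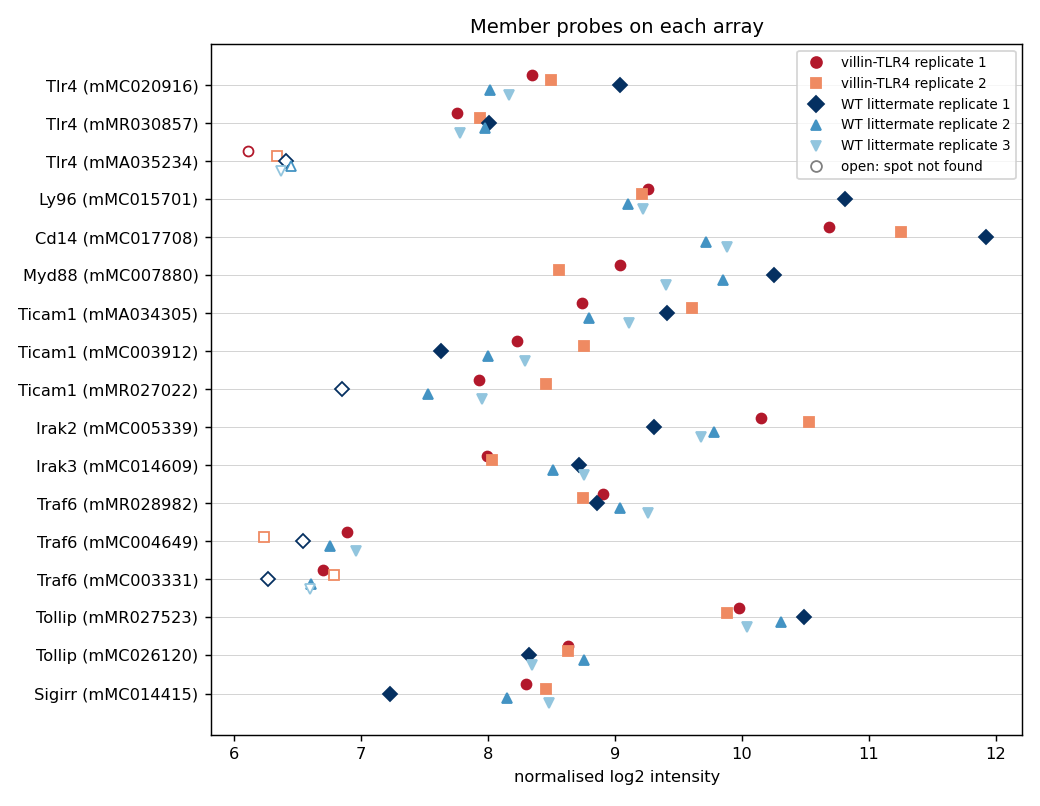
Normalised log2 intensity (x axis) of each of the 17 member probes (y axis, with probe ID) on the 5 arrays. Each symbol is an array and an open symbol marks a spot not found by the scanner software. The villin-TLR4 arrays lie apart from all WT littermate arrays for Myd88, Irak2 and Irak3. WT littermate replicate 1 is highest for Cd14, Ly96 and the brightest Tlr4 probe.

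Tlr4 itself did not differ detectably between the genotypes. Its brightest probe (mMC020916) read 8.35 and 8.50 in villin-TLR4 and 9.04, 8.02 and 8.17 in WT littermates. Both villin-TLR4 values lay inside the range of the WT littermates, which WT littermate replicate 1 sets at its upper end. The difference was 0.01 ± 0.35, with a 95% interval of -0.84 to 0.86 and an adjusted p of 0.994. Without WT littermate replicate 1 it was 0.32, with an adjusted p of 0.572, and within the shared scan day it was 0.48.

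The second Tlr4 probe (mMR030857) read 7.76 and 7.94 in villin-TLR4 and 8.01, 7.98 and 7.78 in WT littermates. Its 5 values spanned 0.25, the narrowest range of the 16 tested member probes, and its difference was -0.07 ± 0.23, or -0.03 without WT littermate replicate 1. The high value of WT littermate replicate 1 at the first probe was thus not seen at the second, which lay only 1.9 background standard deviations over background on that array. The profiles of these 2 probes, each centred on its mean, differed by a root mean square of 0.32, beside a median of 0.27 over 4923 pairs of probes of the same gene. The remaining probe (mMA035234) was found on no array. It lay 1 to 22 intensity units over background, and the 95th percentile of empty spots lay at 15.0 to 18.2. Neither the sequence of the TLR4 transgene nor the place of the probes in it is given here, so these probes check nothing about the genotype labels. RNA from epithelium and from other cells was pooled in each sample, so fewer cells of a type and less RNA per cell cannot be told apart for any member.

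Ly96, whose product MD-2 binds the lipid A part of lipopolysaccharide, read 9.26 and 9.21 in villin-TLR4. In WT littermates it read 10.81, 9.10 and 9.22. WT littermate replicate 1 stood above the other 4 arrays, which lay within a narrow band. The difference of -0.47 ± 0.53 (adjusted p 0.893) became 0.07 without that array and 0.11 within the shared scan day.

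Cd14, the co-receptor that transfers lipopolysaccharide to TLR4 and MD-2, had the widest spread of the tested member probes, 2.20 over the 5 arrays. It read 10.69 and 11.25 in villin-TLR4 and 11.92, 9.72 and 9.88 in WT littermates. The arrays fell in 2 levels that cut across genotype: both villin-TLR4 arrays and WT littermate replicate 1 were high, and WT littermate replicates 2 and 3 were low. The difference was 0.47 ± 0.67, with a 95% interval of -1.15 to 2.09 and an adjusted p of 0.9. Without WT littermate replicate 1 it was 1.18, with an unadjusted p of 0.0028 and an adjusted p of 0.287. Within the shared scan day it was 1.54, the largest such difference of any tested member probe.

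Markers of other cells moved with the array that carried the high Cd14, Ly96 and Tlr4 values. Of 14 neutrophil markers 7 were measured, and on WT littermate replicate 1 their median stood 3.36 above the other arrays. S100a9, a calcium-binding protein abundant in neutrophils, read 14.33 there and 6.52 to 8.94 elsewhere. The summed neutrophil level was 1449 to 1935 intensity units in villin-TLR4 and 925 to 37340 in WT littermates, where the top value is that array, on which Clec4d had no value. Cxcr2, Mmp8, Trem1, Camp, Ngp and Stfa2l1 were found on fewer than 2 arrays, and Ly6g had no named probe.

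Macrophage and monocyte markers were measured for 11 of 15, and their median on WT littermate replicate 1 stood 0.62 above the other arrays. The list was mixed there: Cd163 and Mrc1 were lowest on that array, Cx3cr1 and Lgmn were not highest, and the other measured genes were highest. The summed level of the measured markers was 27965 to 32460 in villin-TLR4 and 25791 to 36810 in WT littermates, so the 2 ranges overlapped. Fcgr1 and Ccr2 were found on fewer than 2 arrays, and Csf1r and Cd68 had no named probe. The 13 epithelial markers were all found on all 5 arrays, as the label colon implies, and summed to 200718 on WT littermate replicate 1 and to 273241 to 321422 on the others. The part of these cell types in the Cd14, Ly96 and Tlr4 values was not tested.

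**Figure D2:**
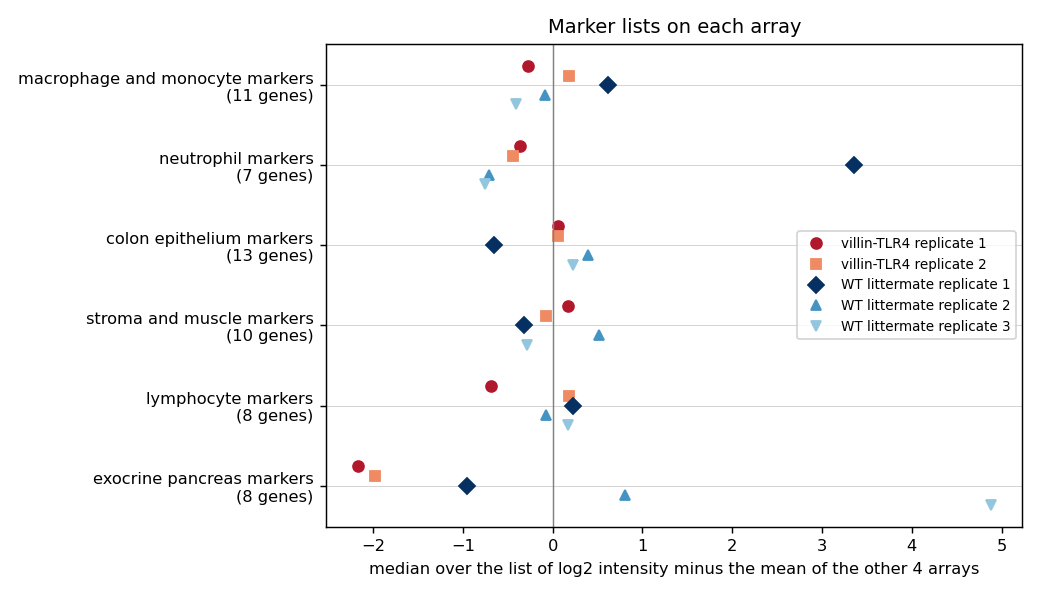
Median over each marker list (y axis, with the number of genes measured) of the log2 intensity on an array minus the mean of the other 4 arrays (x axis). Each symbol is an array. WT littermate replicate 1 stands at 3.36 for neutrophil and -0.65 for epithelial markers, and WT littermate replicate 3 at 4.88 for exocrine pancreas markers.

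Myd88, the adaptor of TLR4, of most other Toll-like receptors and of the IL-1 receptor family, had the largest difference of the tested member probes and a lower mean in villin-TLR4. It read 9.04 and 8.56 in villin-TLR4 and 10.25, 9.85 and 9.40 in WT littermates. The groups did not overlap, and a gap of 0.37 separated the highest villin-TLR4 from the lowest WT littermate value. The means were 8.80 ± 0.34 (SD, n = 2) and 9.84 ± 0.43 (SD, n = 3), so the WT littermate level was 2.05-fold the villin-TLR4 level. The difference was -1.04 ± 0.33, with a 95% interval of -1.82 to -0.25, an unadjusted p of 0.017 and an adjusted p of 0.883, and it did not pass. Without WT littermate replicate 1, the array with the highest value, it was -0.83, and within the shared scan day -1.29. Myd88 was thus unlike Cd14: the low WT littermate arrays for Cd14 were above both villin-TLR4 arrays for Myd88. A single probe (mMC007880) measured it, between 7.5 and 30.9 background standard deviations over background.

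Ticam1 encodes TRIF, the adaptor of the branch that does not need MyD88, and its 3 probes did not give the same picture. The brightest (mMA034305) read 8.74 and 9.61 in villin-TLR4 and 9.41, 8.80 and 9.11 in WT littermates, a difference of 0.07 ± 0.34. Probe mMC003912 read 8.23 and 8.76 against 7.63, 8.0 and 8.29, a difference of 0.52 ± 0.30 with an unadjusted p of 0.13. Probe mMR027022 read 7.93 and 8.46 against 6.85, 7.53 and 7.95, a difference of 0.75 ± 0.38 with an unadjusted p of 0.091. All 3 differences were above 0, and the groups overlapped in each. On all 3 probes villin-TLR4 replicate 2 was the highest array.

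The disagreement was largest on WT littermate replicate 1, which was second highest at the brightest probe and lowest at the other 2. Villin-TLR4 replicate 1 differed too: it was lowest at the brightest probe and above WT littermate replicate 2 at the other 2. On WT littermate replicate 1 those 2 probes stood 1.3 and 0.7 background standard deviations over background, and mMR027022 was not found. Without that array the 3 differences were 0.22, 0.35 and 0.45, and within the shared scan day 0.81, 0.76 and 0.93. The brightest probe differed from mMR027022 by a root mean square of 0.61, and 92.9% of same-gene pairs lay as close or closer, while mMC003912 and mMR027022 differed by 0.18.

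Irak2, a kinase of the MyD88 complex that sustains signalling to TRAF6, had a higher mean in villin-TLR4. Its difference was the largest above 0 among the brightest probes of the members, while the dimmer Ticam1 probe mMR027022 gave 0.75. It read 10.15 and 10.53 in villin-TLR4 and 9.31, 9.78 and 9.68 in WT littermates. Both villin-TLR4 values lay above all WT littermate values, by a gap of 0.36. The means were 10.34 ± 0.27 (SD, n = 2) and 9.59 ± 0.25 (SD, n = 3), a 1.68-fold higher level in villin-TLR4. The difference was 0.74 ± 0.27, with a 95% interval of 0.11 to 1.38, an unadjusted p of 0.029 and an adjusted p of 0.883. It was 0.60 without WT littermate replicate 1 and 0.75 within the shared scan day.

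Irak3 encodes IRAK-M, a family member without kinase activity that holds back the MyD88 complex and is induced in tolerant macrophages. It read 7.99 and 8.03 in villin-TLR4 and 8.72, 8.51 and 8.76 in WT littermates. All WT littermate values lay above both villin-TLR4 values, and the gap of 0.48 was the widest between groups of any member probe. The difference was -0.65 ± 0.22, with a 95% interval of -1.19 to -0.12, an unadjusted p of 0.024 and an adjusted p of 0.883. The WT littermate level was 1.57-fold the villin-TLR4 level. Unlike Cd14 or Ly96, Irak3 did not depend on WT littermate replicate 1: without it the difference was -0.62. Within the shared scan day it was -0.48. A single probe (mMC014609) measured Irak3, between 3.3 and 15.6 background standard deviations over background. Before normalisation, WT littermate replicate 1 lay 141 intensity units over background, below both villin-TLR4 arrays at 261 and 158.

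Markers of exocrine pancreas lay in the same direction as Myd88 and Irak3. Of 10 such markers 8 were measured, and all 8 had lower means in villin-TLR4, with a median difference of -2.76. Each villin-TLR4 array had 4 of the 8 found, WT littermate replicate 1 had 6, and WT littermate replicates 2 and 3 had all 8. A probe found on 2 WT littermate arrays alone was kept. Cpa1 was found on only 2 arrays, and Cela2a, Pnlip and Cel on only 3. The shared direction and the counts that follow here therefore come in part from the filter, and no conclusion is drawn from them. In 6 of these 8 the groups did not overlap, with villin-TLR4 lower, beside 12.6% of all probes in that direction. In limma 3 had an unadjusted p under 0.05, beside 4.64% of all probes, and none passed after adjustment. Their summed level was 9785 to 16229 intensity units in villin-TLR4 and 18272 to 81222 in WT littermates, highest in WT littermate replicate 3. On each villin-TLR4 array most of that sum came from Cela1, whose groups overlapped. Cela1 read 13.78 and 12.74 in villin-TLR4 and 13.42, 14.06 and 14.02 in WT littermates. Ctrb1, whose groups did not overlap, read 7.19 and 7.08 against 8.93, 10.85 and 14.12. Cpb1 and Prss2 had no named probe. In WT littermates Myd88 was highest on replicate 1 and lowest on replicate 3. Irak3 was highest on replicate 3 and lowest on replicate 2, at 8.72, 8.51 and 8.76 on replicates 1 to 3. The part of pancreatic RNA in the Myd88 and Irak3 values was not tested.

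In a fit blocked by scan day, whose contrast rests on the shared day alone, Myd88, Irak2 and Irak3 had unadjusted p of 0.098, 0.33 and 0.53 in limma, and every member probe had an adjusted p of 1.0.

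**Figure D3:**
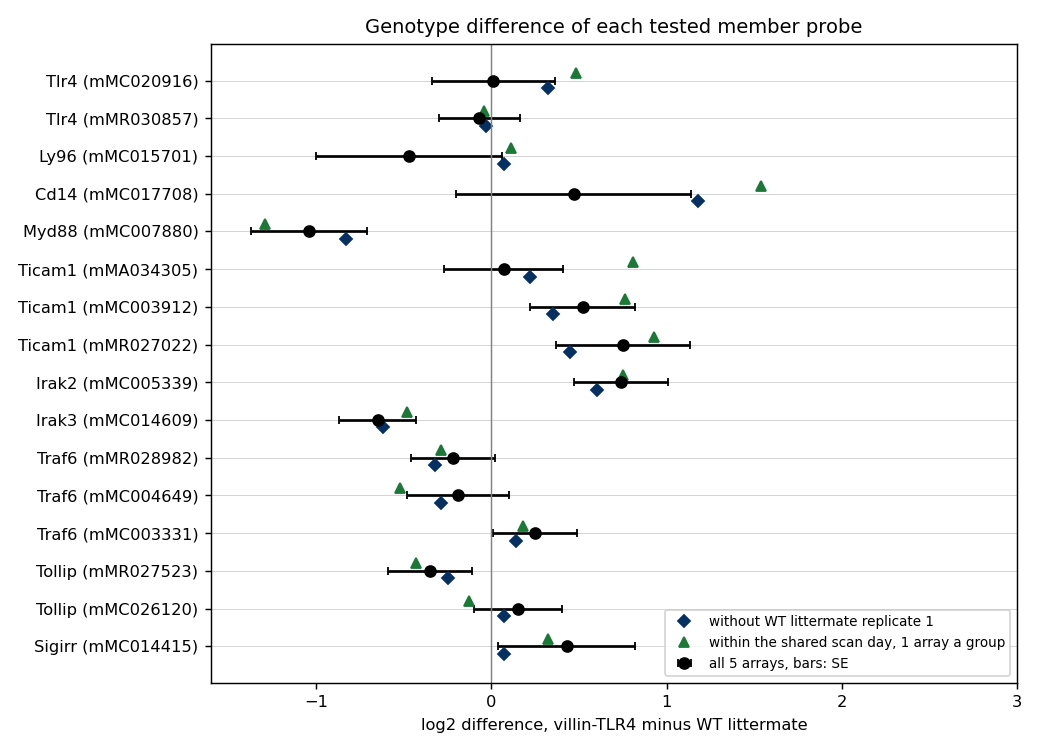
Difference in log2 intensity, villin-TLR4 minus WT littermate (x axis), of the 16 tested member probes (y axis). Black points with bars are the difference and its SE over 5 arrays, diamonds leave out WT littermate replicate 1, and triangles are the shared scan day, with 1 array of each genotype. Myd88, Irak2 and Irak3 keep their side of 0 in all 3 values, and Ly96 goes from -0.47 to 0.07 and 0.11.

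The regions around the start sites of these 3 genes are shown because Myd88 and Irak3 lay on the lower side and Irak2 on the higher side. They come from RefSeq on GRCm38.p6, 250 bases before to 50 after each annotated start, 5′ to 3′ on the gene's strand. Irak3 has 2 annotated starts. Of the 10 members 6 had such a window, and the members without one are not used here. Capitals mark matches on either strand to the STAT-type motif TTCNNNGAA or the interferon-response-type motif GAAANNGAA.
Myd88, chr9:119339969-119340268 (- strand): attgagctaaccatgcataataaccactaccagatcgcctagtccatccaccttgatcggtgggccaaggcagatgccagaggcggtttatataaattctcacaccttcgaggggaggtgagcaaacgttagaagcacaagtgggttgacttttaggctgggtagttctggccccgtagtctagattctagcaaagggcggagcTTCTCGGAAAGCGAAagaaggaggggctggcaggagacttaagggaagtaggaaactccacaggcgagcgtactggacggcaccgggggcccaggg
Irak3, chr10:120202081-120202380 (- strand): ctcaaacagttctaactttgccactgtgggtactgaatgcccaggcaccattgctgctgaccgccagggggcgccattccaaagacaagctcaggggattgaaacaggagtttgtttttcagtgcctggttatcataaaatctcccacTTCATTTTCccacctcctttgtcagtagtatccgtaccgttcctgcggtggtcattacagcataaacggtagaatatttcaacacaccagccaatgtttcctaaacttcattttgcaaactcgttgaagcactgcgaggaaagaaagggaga
Irak3, chr10:120201548-120201847 (- strand): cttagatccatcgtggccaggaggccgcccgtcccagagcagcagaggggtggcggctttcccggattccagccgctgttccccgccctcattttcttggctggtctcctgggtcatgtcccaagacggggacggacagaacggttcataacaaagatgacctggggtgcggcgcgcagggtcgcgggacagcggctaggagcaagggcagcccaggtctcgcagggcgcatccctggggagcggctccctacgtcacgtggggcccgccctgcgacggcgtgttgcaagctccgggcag
Irak2, chr6:113638217-113638516 (+ strand): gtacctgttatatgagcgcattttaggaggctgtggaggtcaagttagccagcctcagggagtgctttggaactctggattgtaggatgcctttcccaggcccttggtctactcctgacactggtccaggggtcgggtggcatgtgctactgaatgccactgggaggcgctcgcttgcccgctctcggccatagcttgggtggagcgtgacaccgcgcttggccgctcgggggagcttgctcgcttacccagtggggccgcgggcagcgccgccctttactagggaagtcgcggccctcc

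In Myd88 the STAT-type motif covered bases 205 to 213 of the window and the interferon-response-type motif bases 211 to 219, so the 2 share 3 bases. They began 46 and 40 bases before the annotated start. In 1 of the 2 Irak3 windows the interferon-response-type motif lay at bases 149 to 157 on the opposite strand, and the Irak2 window held neither. The kappaB consensus and the AP-1-type motif TGANTCA, also searched on both strands, had no match in any member window. Over 32851 promoter windows of the same length, 8.30% held the STAT-type motif, 8.56% the interferon-response-type motif, 8.46% the kappaB consensus and 7.81% the AP-1-type motif. These matches are letters in a window, and no binding was measured.

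Traf6, the ubiquitin ligase that MyD88 and the IRAK kinases activate, read 8.91 and 8.75 in villin-TLR4 and 8.86, 9.04 and 9.26 in WT littermates at its brightest probe (mMR028982). The groups overlapped, and the difference was -0.22 ± 0.24 with a 95% interval of -0.80 to 0.35. Probe mMC004649, found on 3 arrays, gave -0.19 ± 0.29. Probe mMC003331 gave 0.25 ± 0.24. The 3 differences were -0.32, -0.29 and 0.14 without WT littermate replicate 1. The last probe's groups did not overlap, but it was found on only 2 arrays and lay at most 1.4 background standard deviations over background.

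Tollip, an adaptor-binding protein that dampens IRAK activity, read 9.98 and 9.88 in villin-TLR4 and 10.49, 10.31 and 10.04 in WT littermates at its brightest probe (mMR027523). The WT littermate values were all higher, by a gap of only 0.06. The difference was -0.35 ± 0.24, with an adjusted p of 0.883, and -0.25 without WT littermate replicate 1. Its other probe (mMC026120) read 8.63 on both villin-TLR4 arrays and 8.32, 8.76 and 8.35 in WT littermates, a difference of 0.15 ± 0.25, or 0.07 without that array. The 2 Tollip probes thus lay on opposite sides of 0, each by less than 2 standard errors.

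Sigirr encodes an orphan IL-1 receptor family member, known in the colon epithelium, that limits TLR and IL-1 receptor signalling. It read 8.30 and 8.46 in villin-TLR4 and 7.23, 8.15 and 8.48 in WT littermates. Only WT littermate replicate 1 was low, and the difference of 0.43 ± 0.39 became 0.07 without it. The spot on that array was marked found. It lay 40 intensity units over background, above the 95th percentile of empty spots there (18.0), but only 0.1 standard deviations of its own local background. Among the 3 brakes, Irak3 alone had groups separated by more than 0.1.

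The wider pathway was described from 4 further lists, each gene by its brightest probe. Of 24 genes that relay the signal from the adaptors to NF-kappaB and IRF3, all were measured, 11 lay above 0 and 13 below, and the median difference was -0.01, or -0.07 without WT littermate replicate 1. None passed the threshold, and 1 had an unadjusted p under 0.05. That was Tirap, the adaptor that brings MyD88 to TLR4 at the membrane. It read 8.20 and 8.04 in villin-TLR4 and 8.73, 8.85 and 8.51 in WT littermates, a difference of -0.57 ± 0.23 (unadjusted p 0.046, adjusted p 0.883). As with Myd88 and Irak3, no villin-TLR4 value reached any WT littermate value, and the difference without WT littermate replicate 1 was -0.56.

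Next in order of unadjusted p came 3 relay genes that did not reach 0.05. Ikbke, a kinase of IRF3, gave a difference of 0.51 ± 0.25. Traf3, which serves the TRIF branch, gave 0.61 ± 0.31. Irf5, a transcription factor downstream of MyD88, gave -0.56 ± 0.31. These 3 differences were 0.65, 0.39 and -0.39 without WT littermate replicate 1.

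Of 16 other Toll-like receptors and their chaperones 13 were measured, 8 above and 5 below 0, with a median difference of 0.01, with or without WT littermate replicate 1, and 0 at an unadjusted p under 0.05. Tlr5, the flagellin receptor, gave 0.52 ± 0.26 and Tlr9, a receptor for bacterial DNA, -0.44 ± 0.31. Tlr3, a receptor for double-stranded RNA, gave -0.23 ± 0.23. Tlr9 and Tlr3 were each found on only 3 arrays. Tlr3 read 6.29 to 6.71, close to the Tlr4 probe found on no array, at 6.11 to 6.45. Tlr5 gave 0.36, Tlr9 -0.21 and Tlr3 -0.20 without WT littermate replicate 1. Tlr2, the lipoprotein receptor for which CD14 is also a co-receptor, read 9.72 and 10.11 in villin-TLR4 and 10.23, 8.09 and 8.93 in WT littermates. It had the same order of high and low arrays as Cd14, with WT littermate replicate 1 on top, and its difference of 0.83 ± 0.59 was 1.4 without that array.

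Among 22 other inhibitors of TLR4 signalling 21 were measured, 13 above and 8 below 0, with a median difference of 0.20. The median was 0.08 without WT littermate replicate 1 and 0.06 within the shared scan day. None passed the threshold. At an unadjusted p under 0.05 there were 4 higher and 1 lower in villin-TLR4, beside 4.64% of all probes in either direction. Zc3h12a, an RNase that degrades inflammatory mRNAs, read 10.02 and 10.69 in villin-TLR4 and 9.67, 7.79 and 7.73 in WT littermates, a difference of 1.96 ± 0.62. Tnfaip3, which encodes the deubiquitinase A20, gave 1.59 ± 0.55 and Nfkbia, which encodes the NF-kappaB inhibitor IkappaBalpha, 1.33 ± 0.53. Leaving out WT littermate replicate 1 gave 2.6, 2.14 and 1.88 for these genes. In all 3 both villin-TLR4 arrays were higher than any WT littermate array, and WT littermate replicate 1 lay nearer to them than to the other WT littermates.

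The fourth higher gene was Nfkbiz, which encodes a nuclear IkappaB protein, at 1.03 ± 0.42, or 1.29 without WT littermate replicate 1. Socs3, the cytokine-induced inhibitor of STAT3 signalling, was the lower gene: it read 9.54 and 10.01 in villin-TLR4 and 11.79, 10.82 and 10.23 in WT littermates, a difference of -1.17 ± 0.47. Without WT littermate replicate 1, where it was highest, the Socs3 difference was -0.75. The inhibitors therefore did not lie on the same side. Those 4 NF-kappaB-related genes had higher means in villin-TLR4, and Irak3 and Socs3 lower means.

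Of 12 IL-1 family ligands and receptors, a family whose signalling receptors also use MyD88, 10 were measured, 4 above and 6 below 0, with a median difference of -0.27. Il1rn, a receptor antagonist, and the decoy receptor Il1r2 are counted here but do not signal. The sign of that median turned without WT littermate replicate 1, to 0.11, and within the shared scan day, to 0.16. None had an unadjusted p under 0.05. The alarmin Il33 read 7.80 and 7.42 in villin-TLR4 and 7.57, 9.94 and 8.69 in WT littermates, a difference of -1.13 ± 0.65, or -1.71 without WT littermate replicate 1. The receptors Il1rl2, Il1r1 and Il1r2 gave -0.54 ± 0.36, -0.39 ± 0.37 and -1.11 ± 1.12, which became -0.22, -0.07 and 0.03 without that array. The other tested Il1r1 probe gave 0.04 over all arrays. Il1r2, a decoy receptor carried by neutrophils, read 11.51 on WT littermate replicate 1 and 7.26 to 8.96 on the others.

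**Figure D4:**
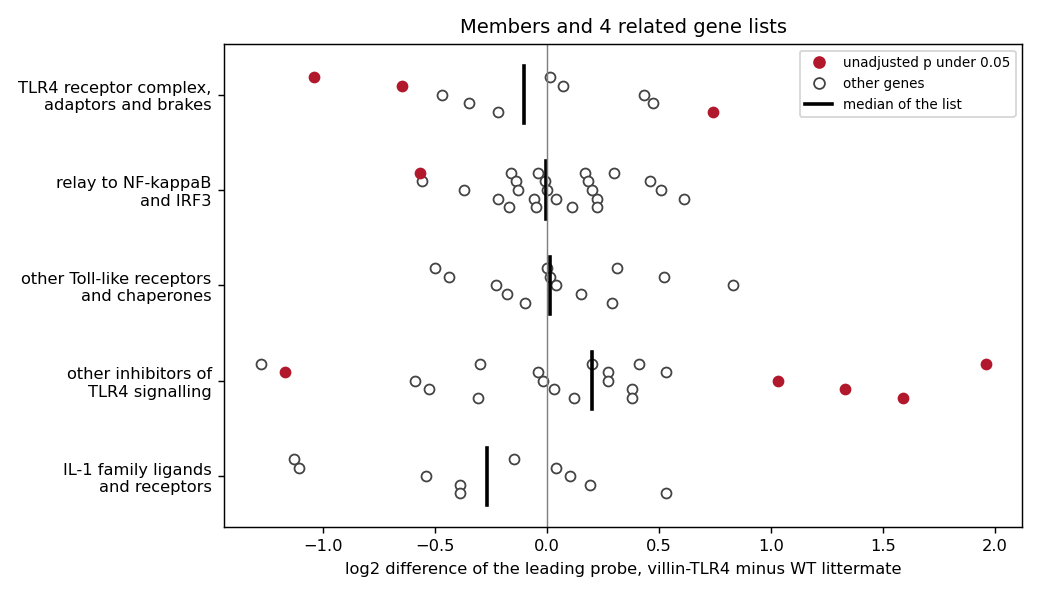
Difference in log2 intensity, villin-TLR4 minus WT littermate (x axis), of the brightest probe of each gene in the member list and in 4 related lists (y axis). Red points have an unadjusted p under 0.05 and black bars are list medians. No gene shown passed after adjustment, and the inhibitor list holds the widest values, up to 1.96.

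For 5 members the genes with the most similar profiles over the 5 arrays were sought among 7778 named genes found on all arrays. Likeness was the root mean square of the difference between centred log2 profiles, over 5 arrays only. Nearest to Cd14 was Pglyrp1, a peptidoglycan-binding antibacterial protein, at 0.090, where the median gene lay at 0.87. It read 13.66 and 14.45 in villin-TLR4 and 14.88, 12.73 and 12.98 in WT littermates. The same 3 arrays were high, which follows from choosing it by likeness. Ppy and Rhod followed at 0.158 and 0.174.

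Nearest to Myd88 were Glrx3 at 0.075, Nip7 at 0.096 and Ino80c at 0.112, where the median gene lay at 0.64. For Irak2 they were Niban1 at 0.072, Arhgap5 at 0.079 and the iron transporter Slc11a2 at 0.085, and for Irak3 they were Ptges3 at 0.045, Sar1a at 0.063 and Atp6v0c at 0.070. For the brightest Tlr4 probe they were Slc35d2 at 0.033, and Mff and Gyg both at 0.047. The 5 sets of nearest genes had no gene in common. Each set held only the nearest few genes, so this does not tell how alike the members are.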

How the data were processed

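Total RNA of 5 colon samples was made into biotin-labelled cRNA and hybridised to 1 array each, per the labels' protocols. The deposited intensity values are scanner output at 635 nm for 38880 spots, not normalised, and each spot carries a flag score for found, not found or bad, per the file headers. The median foreground was corrected for local background by normexp (offset 50), spots marked bad were set to missing, and the 35078 gene probes were taken to log2 and quantile normalised (limma 3.58.1, R 4.3.3). RefSeq accessions gave 1 symbol for 23017 probes through a GRCm38.p6 gene table. The probe design's own build is not stated. Probes found on at least 2 arrays (19121) were tested with lmFit and eBayes, two-sided, without covariates, at a Benjamini-Hochberg threshold of 0.05. A gene's leading probe is the brightest of those tested.

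The deposited value table was used as an alternative. Its ratio values, as deposited by the authors, follow background-subtracted intensity times a factor per array, over the geometric mean of the WT littermate arrays. Log2 differences between arrays correlated with the scanner files at 0.999945 or more for found spots. Its column medians are 0.981, 1.065, 1.176, 0.98 and 0.991. Values at spots marked bad did not follow the files, and their origin is unknown.

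All 10 members were named with every probe, and up to 4 genes with the smallest unadjusted p, plus any other under 0.05, from each related list. The members and lists were chosen with earlier results of these data known. Nothing in the labels says that the WT littermate samples are separate mice. The p-values then reflect the spread among these samples, which may be technical. Precision is limited by the number of arrays. Alternatives in background correction, normalisation, filter, probe choice, covariates and arrays are given at the end. The code was tested on simulated data.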

Additional observations from a re-analysis of the deposited data

How the results depend on the processing

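Under 22 alternatives of background correction, normalisation, filter, probe choice, model and array left out, 0 member probes passed the threshold in any that gives a test. These are not all separate checks. Sex as a covariate is the same fit as leaving out villin-TLR4 replicate 2, the only male. For the leading probes, scan day as a block gives the differences of the shared scan day, and the replicate block those without WT littermate replicate 3. The leading probes of Cd14, Myd88, Irak2, Irak3, Traf6 and Tollip kept their direction under all of these, with ranges of 0.07 to 1.54, -1.29 to -0.7, 0.55 to 0.94, -0.84 to -0.48, -0.38 to -0.05 and -0.47 to -0.1. Their lowest adjusted p were 0.158, 0.207, 0.162, 0.116, 0.321 and 0.674. Tlr4 changed sign with the foreground mean (-0.1), the mean of its probes (-0.03), sex as a covariate (-0.06) and a replicate block (-0.11), and ran from -0.18 to 0.32 as each array was left out. Ly96 changed sign with scan day as a block and within the shared scan day (0.11 in both) and without WT littermate replicate 1, and ran from -0.78 to 0.07 as each array was left out. Ticam1 did so without villin-TLR4 replicate 2 (-0.36, the same fit as sex as a covariate) and without WT littermate replicate 2. It ran from -0.36 to 0.5 as each array was left out. Sigirr changed sign with array weights (-0.01). The cause was not tested.

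Over all probes, 0 passed except with array weights (25), the replicate block (34) and scan day as a block (68). The count with scan day as a block rests on 1 array of each genotype, with its spread taken from other arrays. Replicate numbers are not stated to pair samples. Probes without overlap numbered 7598 with no filter on dim probes, which tests more probes, and 2197 in the deposited table, which holds fewer. They numbered 7061 to 8759 with an array left out. Without overlap were 3 of 10 members with the mean of a gene's probes, beside 25.2% of all, and 3 of 14 member probes in the deposited table, beside 24.9%. With an array left out 6 to 10 of 16 member probes had no overlap, beside 38.1% to 47.3% of all probes. Without WT littermate replicate 1, 4 member probes had an unadjusted p under 0.05, beside 10.8% of all probes; the added gene was Cd14. The upper-quartile signal over background was 116 on WT littermate replicate 1 and 256 to 481 on the others. Ticam1 mMR027022 was not found on that array, and 2 of the 3 Traf6 probes were not found there or on villin-TLR4 replicate 2.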

Other observations

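In the deposited value table, the difference on the log2 scale was -1.17 for Myd88, 0.87 for Irak2 and -0.83 for Irak3, with unadjusted p of 0.023, 0.028 and 0.016 and an adjusted p of 0.859 for each in limma. For Cd14 it was 0.40, and for the 2 found Tlr4 probes 0.06 and -0.05. For Sigirr it was 0.11, against 0.43 from the scanner files, and the table holds no Sigirr value for WT littermate replicate 1.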
